A study of Oryza sativa with 6 samples.

Results

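The distal long arm of rice chromosome 11, taken here from 20 Mb to the last called region at 29013913 bp, held 289 of the 17468 regions marked by acetylation of histone H3 at lysine 9 (H3K9ac) in rice leaves. Members were chosen by position alone: intervals of the 6 deposited peak lists that overlapped by 1 bp were merged, and merged regions with a midpoint at or beyond 20 Mb were kept. The leaves came from rice (Oryza sativa) seedlings, all aged 20 days, in 3 groups of 2 libraries: infested for 12 h with the fall armyworm Spodoptera frugiperda, a moth caterpillar, infested with it for 3 h, and control. All seedlings were grown in soil in a greenhouse under one light cycle. The labels give no cultivar or genotype and do not say whether the libraries came from separate plants, so the p-values measure only a spread between libraries that may be technical. Libraries were made from leaf nuclei by CUT&Tag, in which an antibody, here against H3K9ac, guides a transposase that cuts and tags nearby DNA. Sample labels give leaf as the tissue and are followed here, although the design text names whole seedlings. Positions are on genome build IRGSP-1.0.

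H3K9ac is placed by histone acetyltransferases and removed by deacetylases, and in plants it sits mainly over the start of genes that are being transcribed or are ready to be. The long arm of rice chromosome 11 is known for clusters of immune receptor genes. These include nucleotide-binding leucine-rich repeat receptors, which sense pathogen effectors inside the cell, and membrane receptor kinases, which sense molecules outside it. Such clusters grow by tandem duplication, and several resistance loci against rice blast and bacterial blight have been mapped to this arm. No gene positions on the build of the files were used here, so each member is given by its position and not by a gene, and leaf marker genes were not checked.

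The arm was the most sparsely marked of the 12 distal chromosome ends in every library. It carried 32.1 merged regions per Mb, against 61.9 per Mb over the last 9 Mb of the other 11 chromosomes, a ratio of 0.518. Those 11 ends held 365 to 670 merged regions each, and the end of chromosome 12 was the next sparsest. The arm made up 2.42% of the nuclear length spanned by the lists and held 1.65% of the merged regions. Ends were measured from the last region called on each chromosome in any list, since chromosome lengths were not used here.

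In single libraries the arm held 184 and 178 regions at 12 h, 181 and 201 at 3 h, with 71 and 87 in control. These are 20.4 and 19.7 regions per Mb at 12 h, 20.1 and 22.3 at 3 h, with 7.88 and 9.65 in control. The other ends, pooled, had 40.9 and 39.5 regions per Mb in the same 12 h libraries, 37.1 and 43.0 at 3 h, with 16.8 and 18.8 in control. No library had another end as sparse: the lowest other end of a list had 23.8 to 28.6 regions per Mb in the infested libraries and 11.9 and 12.9 in control. The log2 ratio of arm to other ends averaged −0.98 ± 0.071 (SD, n = 6) and was negative in 6 of 6 libraries. An exact sign-flip permutation test over the libraries, two-sided, gave p = 0.03125, the smallest it can give with 6 libraries (adjusted p = 0.0375 over 6 such tests). That test measures the spread between libraries and not between chromosomes.

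**Figure D1:**
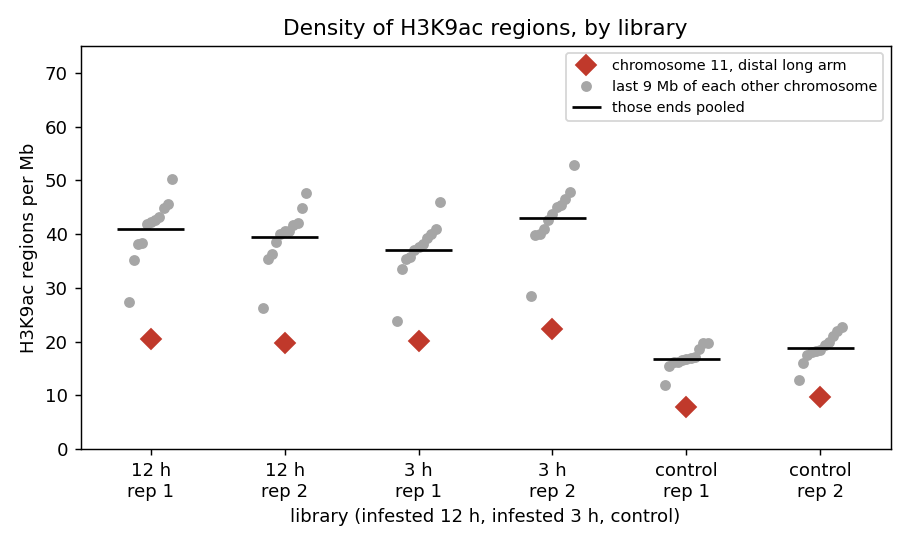
Regions per Mb (y axis) in each of the 6 libraries (x axis); red diamonds are the distal long arm of chromosome 11, grey points the last 9 Mb of each other chromosome, and black lines those ends pooled. The arm lies below every other end in every library, at 7.88 to 22.3 regions per Mb.

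Set against the end of chromosome 12 alone, a comparison chosen after seeing the data, the log2 density ratio was −0.41 ± 0.11 (SD, n = 6) and again negative in 6 of 6 libraries (exact sign-flip p = 0.03125, adjusted p = 0.0625). None of the 6 measures described here passed the threshold after adjustment against that end alone. The arm was also no denser than the rest of its own chromosome. It had 32.1 merged regions per Mb, against 35.7 per Mb for chromosome 11 before 20 Mb, a ratio of 0.898. On each of the other 11 chromosomes the last 9 Mb were denser than the rest, with ratios of 1.18 on chromosome 12 to 2.22 on chromosome 9.

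Toward the chromosome end the arm thinned, while the median of the other chromosomes did not. In bins of 1 Mb counted from the last region, the 4 bins nearest the start of the arm held 44, 35, 37 and 40 merged regions, and the 5 bins nearest the end held 26, 24, 25, 32 and 24. The median of the other 11 chromosomes was 60 regions in the bin farthest from the end and 74 in the last one. In the last 5 bins the arm was the lowest of the 12 chromosomes. In bins farther in it was lowest in 1 and of rank 2 or 3 from the bottom in the others. These bins are a description of the merged set and were not tested.

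**Figure D2:**
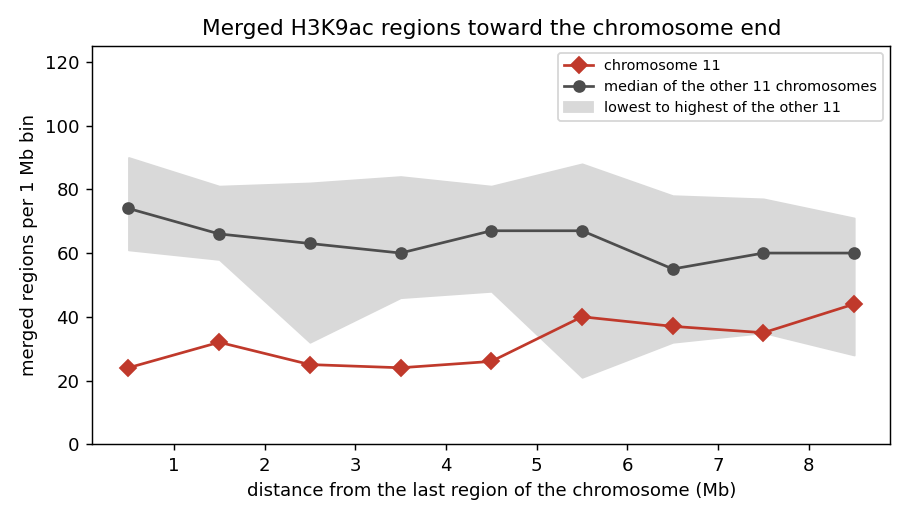
Merged regions per bin of 1 Mb (y axis) against distance from the last region of the chromosome in Mb (x axis), for chromosome 11 (red), the median of the other 11 chromosomes (dark grey) and their range (shaded). The red line lies below the shaded range over the last 5 Mb, at 24 to 32 regions per bin.

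Along the arm the densest full window was 20000001 to 21000000, with 46 merged regions. Infested libraries called 32 and 27 regions there at 12 h and 33 and 37 at 3 h, and control libraries called 10 and 13. The sparsest window was 25000001 to 26000000, with 24 merged regions. It held 12 and 10 regions at 12 h, 8 and 11 at 3 h, with 3 and 4 in control. Both windows were thus fuller in each infested library than in either control library, and the same was true of all 9 full windows. The ratio of infested to control means lay between 1.66 (21000001 to 22000000) and 3.06 (26000001 to 27000000). These window counts are not corrected for list length. Infested lists held 10460 to 12234 nuclear regions in all, against 4671 and 5174 in control. When each list was cut to 5150 peaks, the whole arm held 65 to 78 regions in infested lists, and 71 and 75 in control. Single windows were not recounted in that way.

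Sparse marking on the arm included long unmarked stretches but was not limited to them. The median gap between merged regions was 14596 bp on the arm, against 10194 bp at the other ends. Of its 288 gaps between neighbouring merged regions, 18 were longer than 100 kb, which is 6.25% of gaps, against 0.442% of gaps at the other ends. Those 18 stretches took up 33.2% of the arm. On the other ends the share of length in such gaps was 0% to 5.40%, apart from chromosome 12 with 22.2%. Short gaps were less frequent on the arm, with 15.3% of gaps under 5 kb against 20.5% at the other ends. Of the arm members, 28.4% had a neighbour within 5 kb, against 31.0% to 41.8% of regions on the other 11 ends.

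**Figure D3:**
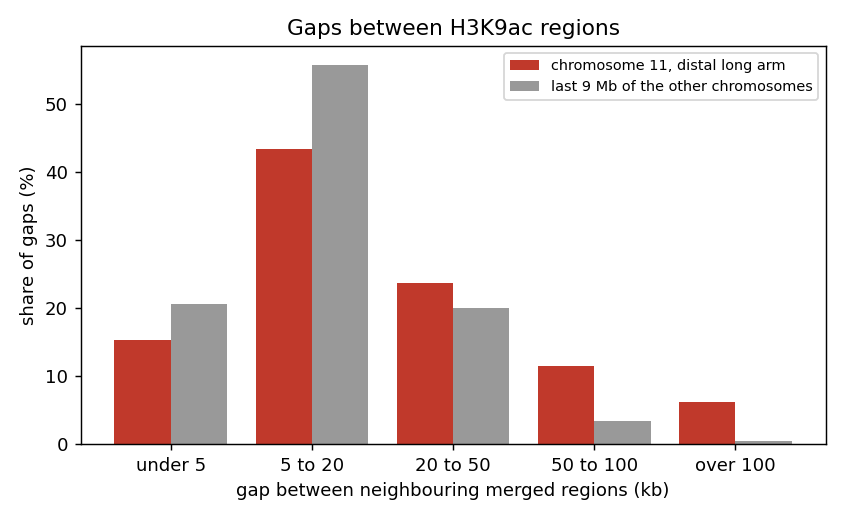
Share of gaps (y axis, %) by length of the gap between neighbouring merged regions (x axis, kb), for the distal long arm of chromosome 11 (red) and the last 9 Mb of the other chromosomes pooled (grey). The arm has fewer gaps of 5 to 20 kb (43.4% against 55.7%) and more above 50 kb.

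The longest gap ran from 28357791 to 28787496, or 429.7 kb without a call in any library. In every single list the longest gap of the arm covered that same stretch, at 470.0 and 612.0 kb at 12 h, 645.1 and 695.7 kb at 3 h, with 706.6 and 707.5 kb in control. The longest gap on any other end was 360.9 and 360.8 kb in the same 12 h lists, 366.8 and 366.6 kb at 3 h, with 462.6 and 401.9 kb in control. Further long gaps were 25779129 to 26115732 (336.6 kb), 27794539 to 27997575 (203.0 kb), 24723936 to 24911586 (187.7 kb) and 24974180 to 25147164 (173.0 kb). All 5 lie in the outer part of the arm, past its midpoint. A missing call means that no region passed the authors' threshold, not that acetylation was absent.

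The median gap per library was longer on the arm in 6 of 6 libraries. It was 21310 and 22538 bp at 12 h, 21614 and 21042.5 bp at 3 h, with 94067.5 and 49216.5 bp in control. The other ends had medians of 15697 and 16148.5 bp at 12 h, 16991.5 and 15051 bp at 3 h, with 35437 and 32050 bp in control. The log2 ratio of arm to other ends averaged 0.63 ± 0.39 (SD, n = 6; exact sign-flip p = 0.03125, the smallest possible, adjusted p = 0.0375). Control replicate 1 stood apart with a log2 ratio of 1.41, and without it the mean was 0.47.

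Median fold enrichment on the arm was 0.970 to 1.07 times that of the other ends. The authors gave each peak a fold enrichment, its summit relative to a local background, and the fold of a region is the highest of its peaks. Whether that background came from the same library or from an input control is not given. The median fold on the arm was 4.02 and 4.12 at 12 h, 3.82 and 3.84 at 3 h, with 3.68 and 3.62 in control. At the other ends it was 3.96 and 3.96 at 12 h, 3.68 and 3.58 at 3 h, with 3.56 and 3.73 in control. The arm was higher in 5 of 6 libraries, control replicate 2 being the exception, and the mean log2 ratio was 0.039 ± 0.048 (SD, n = 6; exact sign-flip p = 0.09375, adjusted p = 0.09375). With only peaks at −log10 q of at least 5, the log2 ratio was 0.092 (exact sign-flip p = 0.03125, adjusted p = 0.0375). Fold and significance both depend on summit coverage and local background, so that filter is not independent of the fold being compared.

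This fold rested on fewer fragments. The fold and −log10 p of a peak together give its summit coverage and its local background, which were recovered for 100% of nuclear peaks. Median summit coverage on the arm was 12 and 12 fragments at 12 h, 15 and 15 at 3 h, with 15 and 13 in control. At the other ends it was 15 and 14 at 12 h, 17 and 17 at 3 h, with 18 and 16 in control. The arm was lower in each of the 6 libraries. The local background under arm peaks was lower as well: 1.51 and 1.46 times the genome background at 12 h, 1.42 and 1.39 at 3 h, with 1.33 and 1.38 in control. At the other ends those multiples stood at 1.95 and 2.03 at 12 h, 1.79 and 1.74 at 3 h, with 1.75 and 1.81 in control. Both measures were added after the data were seen and carry no test.

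Arm regions were somewhat narrower and less often had several summits. Median width was 599 and 589 bp at 12 h, 554 and 588 bp at 3 h, with 545 and 501 bp in control. At the other ends it was 608 and 661 bp at 12 h, 583 and 593.5 bp at 3 h, with 581 and 610 bp in control. The log2 ratio of arm to other ends averaged −0.11 ± 0.10 (SD, n = 6) and was negative in 6 of 6 libraries (exact sign-flip p = 0.03125, adjusted p = 0.0375). With the arm taken from 22 Mb and the last 7 Mb of the others, it was −0.082 with an adjusted p of 0.1125 in the same exact permutation test.

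Regions with several summits, where the caller split one stretch of enrichment into more than one peak, numbered 12 and 12 on the arm at 12 h, 16 and 23 at 3 h, with 4 and 1 in control. As shares of arm regions they made up 6.52% and 6.74% (12 h), 8.84% and 11.4% (3 h), and 5.63% and 1.15% (control). At the other ends the shares came to 10.7% and 10.9% at 12 h, 11.9% and 13.9% at 3 h, with 9.66% and 8.56% in control. The share was lower on the arm in 6 of 6 libraries, with a mean difference of −4.21 ± 1.72 percentage points (SD, n = 6; exact sign-flip p = 0.03125, adjusted p = 0.0375). At −log10 q of at least 5 the difference was −4.93 points with an adjusted p of 0.0625 in the same exact permutation test. Marked bases are the summed widths of regions. On the arm they came to 13.4 and 13.1 kb per Mb at 12 h, 12.3 and 14.3 at 3 h, with 4.99 and 5.63 in control. The other ends had 28.3 and 29.3 kb per Mb at 12 h, 25.1 and 29.3 at 3 h, with 11.4 and 13.1 in control. That is a mean log2 ratio of −1.12 ± 0.085 (SD, n = 6; exact sign-flip p = 0.03125, adjusted p = 0.0375).

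The strongest members called in all 6 lists were led by one region well above the rest. It spans 25358551 to 25359957, had a single summit in each list, and lies in the sparsest window. Its fold was 9.93 and 10.7 at 12 h, 8.21 and 11.3 at 3 h, with 9.21 and 8.47 in control, so the groups overlapped. The next was 28841433 to 28842697, on the far side of the longest gap, with a fold of 6.36 and 6.69 at 12 h, 4.72 and 5.45 at 3 h, with 6.56 and 5.65 in control. Next by mean fold, 27292789 to 27293860 and 27263546 to 27264222 are neighbours on the arm, 28566 bp apart. The member at 27292789 had a fold of 7.17 and 5.18 at 12 h, 6.06 and 6.83 at 3 h, with 5.08 and 4.77 in control, and each infested value was above both control values. The member at 27263546 had 5.22 and 5.35 at 12 h, 6.08 and 6.33 at 3 h, with 3.50 and 7.32 in control, where the 2 control lists bracketed all infested ones.

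The other 4 of the 8 strongest were 22900294 to 22901689, 23346562 to 23347467, 22202333 to 22202950 and 21722128 to 21723733. Their mean fold over the lists lay between 5.30 and 5.57. The member at 22900294 had a fold of 6.34 and 7.43 at 12 h, 5.54 and 5.25 at 3 h, with 3.68 and 5.17 in control, and the infested lists were all above control. At the other 3 the infested and control ranges overlapped. The 979 regions of the other ends called in all lists also had a higher median fold in each infested list. It was 4.24 to 4.62 there, against 3.84 and 4.03 in control. How many of all regions called in every list separate the groups like those at 22900294 and 27292789 is not given here. Fold is relative to the local background used for its own list, so these values describe each list and give no test between groups.

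**Figure D4:**
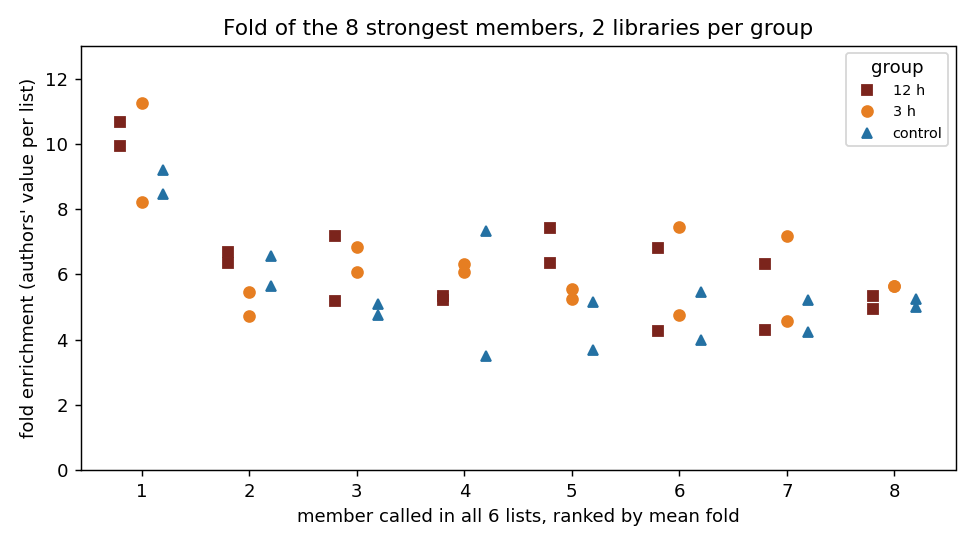
Fold enrichment given by the authors (y axis) for the 8 members called in all 6 lists with the highest mean fold (x axis, ranked), with 1 point per library: 12 h squares, 3 h circles and control triangles. The first member lies at 8.21 to 11.3 in all libraries and the groups overlap at most members.

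The widest members were 23333696 to 23335654 with a merged width of 1959 bp, 24230474 to 24232429 with 1956 bp and 28934037 to 28935926 with 1890 bp. Their mean fold was 3.48, 3.06 and 3.57. The first 2 were called in all 6 lists with up to 3 summits in a list, and the last was missing from 12 h replicate 2. Over all members the merged width had a median of 704 bp and ran from 323 to 1959 bp, against a median of 726.5 bp at the other ends.

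After infestation more regions were called on the arm, in step with the whole list. The mean count was 181 ± 4.24 at 12 h, 191 ± 14.1 at 3 h and 79 ± 11.3 in control (SD, n = 2 each). Infested libraries had 2.30 times the control count at 12 h, and 2.43 times at 3 h (exact permutation p = 0.333 for each, adjusted p = 0.533 over 24 tests), and all infested lists lay above both control lists. With all 4 infested libraries against the 2 control libraries the exact permutation p was 0.133. These are the smallest p-values that such tests can give, so none could reach 0.05. Control lists were also shorter in all, with 5150 and 5644 peaks against 11738 to 14010 in the infested lists. With every list shortened to its 5150 most significant peaks, the arm held 65 and 71 regions at 12 h, 76 and 78 at 3 h, with 71 and 75 in control. The log2 ratio of infested to control was then −0.013, against 1.24 with the lists as deposited.

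As a share of the regions in its list, the arm held 1.63% and 1.61% at 12 h, 1.73% and 1.64% at 3 h, with 1.52% and 1.68% in control. The infested and control shares overlapped (log2 ratio 0.048; exact permutation p = 0.533, adjusted p = 0.727), and the sign turned without control replicate 1, at −0.025. Density relative to the other ends was 0.499 and 0.50 at 12 h, 0.542 and 0.518 at 3 h, with 0.468 and 0.515 in control. The log2 difference between infested and control was 0.069 (exact permutation p = 0.4, adjusted p = 0.6). Between the infested groups, 12 h libraries were below 3 h libraries in both measures, with log2 differences of −0.058 for the share and −0.085 for the density ratio (exact permutation p = 0.333 for each, the smallest possible, adjusted p = 0.533).

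In the lists as deposited, which differ in length, the median gap on the arm was shorter after infestation, at 21924 ± 868 bp at 12 h and 21328 ± 404 bp at 3 h, against 71642 ± 31714 bp in control (SD, n = 2 each). The log2 ratio of all infested to control libraries was −1.65 (exact permutation p = 0.133, adjusted p = 0.533, groups not overlapping). It was −2.12 without control replicate 2 and −1.19 without control replicate 1. With lists of equal length it was −0.19 (exact permutation p = 0.533, adjusted p = 0.762), with −0.085 at 12 h and −0.30 at 3 h. Relative to the other ends, the median fold of the arm differed by 0.058 on the log2 scale between infested and control (exact permutation p = 0.267, adjusted p = 0.533), and by −0.051 with peaks at −log10 q of at least 5 only. The direction of that difference therefore depended on the threshold.

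With the lists as deposited, calls by group on the arm were near those of all merged regions at 12 h. A region is termed gained when both lists of the infested group called it and no control list did, and lost in the reverse case. At 12 h, 61 of the 289 members (21.1%) were gained, against 21.1% of all merged regions and 21.1% at the other ends. At 3 h, 65 members (22.5%) were gained, against 19.4% of all merged regions and 18.3% at the other ends, which ranged from 16.3% to 20.5%. The arm thus had the highest share gained at 3 h of the 12 ends. Both comparisons use the same control libraries, and 39 members (13.5%) were gained at both times, against 11.8% of all merged regions. Regions are not replicates, and no test was run on these shares. With lists of equal length, which leave 177 regions on the arm of 9838 in all, 8 (4.52%) were gained at 12 h, against 7.3% of all of these regions. At 3 h, 11 (6.21%) were gained, against 5.55%, and at both times 2 (1.13%), against 2.25%. At −log10 q of at least 5, 141 regions remain on the arm of 8269 in all. Of these, 18 (12.8%) were gained at 12 h, against 19.3% of all, and 25 (17.7%) at 3 h, against 18.2%. At both times 6 (4.26%) were gained, against 8.86%. The arm share gained at both times was thus above that of all regions as deposited and below it under both of these settings. Leaving out one 12 h library in turn gave 95 gained at 12 h each time, and 110 were gained at 3 h without 3 h replicate 1. With 1 list left in a group, a call in that list alone meets the rule, so the rule is looser by construction. Shares of all merged regions are not given for these counts.

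**Figure D5:**
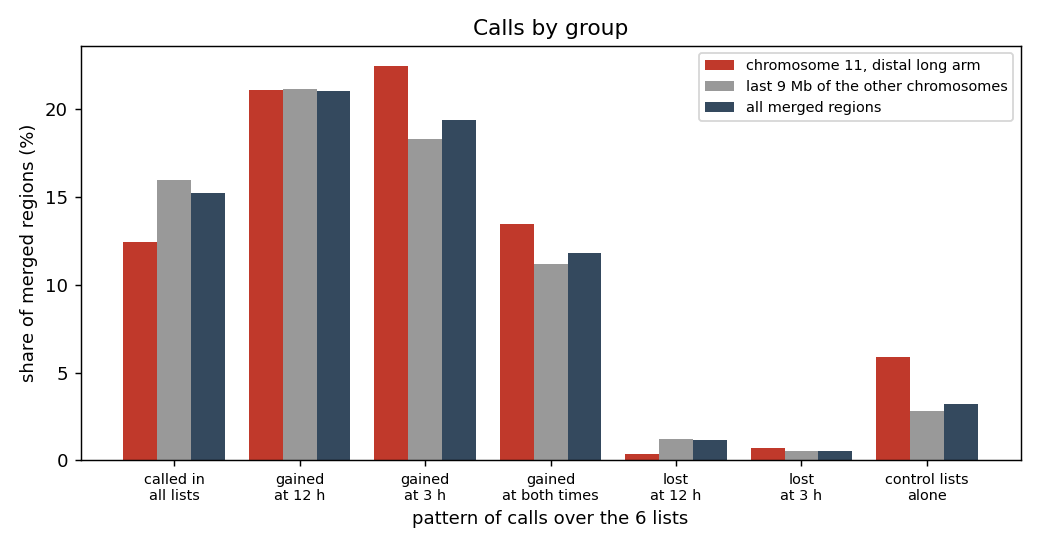
Share of merged regions (y axis, %) with each pattern of calls over the 6 lists (x axis), for the distal long arm of chromosome 11 (red), the last 9 Mb of the other chromosomes (grey) and all merged regions (blue). The arm has the lowest share called in all lists (12.5%) and a larger share called in control lists alone (5.88% against 2.82% at the other ends).

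The members gained at both times with the highest of the lowest infested folds were of moderate strength. The first, 24642404 to 24643227, had a fold of 4.46 and 5.38 at 12 h and 5.21 and 5.20 at 3 h. The second, 26501523 to 26502303, had 5.13 and 5.11 at 12 h and 3.91 and 4.76 at 3 h. They were followed by 20617046 to 20618286, 25623043 to 25623968 and 24932526 to 24933279, with infested folds of 3.67 to 8.28. The mean fold of the 5 lay between 4.52 and 5.46, and by the definition of gained no control list called them. With lists of equal length, and also at −log10 q of at least 5, the member at 26501523 was called in 4 lists. Those at 24642404 and 24932526 were then called in 3, and those at 20617046 and 25623043 in 2.

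Losses were few. At 3 h, 2 members (0.692%) were lost, against 0.538% of all merged regions, and at 12 h 1 member (0.346%) was lost, against 1.13%. The region at 27654062 to 27654646 was the 1 member lost at both times (0.263% of all merged regions were), with control folds of 3.78 and 3.62 and no call in any infested list. The other, 21484650 to 21485748, had control folds of 3.04 and 2.64 and no call at 3 h, but folds of 3.38 and 3.99 at 12 h. With lists matched on an overlap of 50% of the shorter region, 1 of 306 arm regions (0.327%) was lost at 3 h, against 0.512% of all 18372. Leaving out control replicate 1 or 2 gave 15 and 11 lost at 3 h and 16 and 11 at 12 h, and without 12 h replicate 1 the count at 12 h was 4. The rule is looser by construction with 1 list left in a group, and shares of all merged regions are not given for these counts. With lists of equal length, 7 of 177 arm regions (3.95%) were lost at 3 h, against 5.73% of all 9838 regions, and 13 (7.34%) at 12 h, against 6.9%.

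Between the infested groups, 13 members (4.50%) were gained at 12 h against 3 h and 12 (4.15%) were lost, against 3.89% and 3.8% of all merged regions. Leaving out 12 h replicates 1 and 2 and 3 h replicate 2 gave 26, 34 and 24 gained, and leaving out each infested library gave 25 to 38 lost. Here too the rule is looser with 1 list left in a group, and shares of all merged regions are not given for these counts. Both 12 h lists alone called 7 members, or 2.42% against 3.37% of all merged regions, and both 3 h lists alone called 8, or 2.77% against 2.47%. Of those seen at 12 h alone, 20012831 to 20013272 had folds of 4.02 and 3.71, 21246247 to 21246774 had 3.62 and 4.02, 26580966 to 26581952 had 3.46 and 4.89, and 23312730 to 23313404 had 3.51 and 3.44. Of those seen at 3 h alone, 20396922 to 20397446 had the highest value for the lower of its 2 folds, with folds of 3.91 and 5.12. The others named by rank, 24658394 to 24659142, 24723056 to 24723935 and 27387636 to 27388434, had folds of 3.21 to 3.82. The member at 24723056 borders the gap of 187.7 kb. With lists of equal length, and also at −log10 q of at least 5, the members at 26580966 and 20396922 were each called in 1 list. The other members named in this paragraph were then called in 0 lists.

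Members called by every list were scarcer on the arm than on any other end. Of the 289 members, 36 (12.5%) were called in all 6 lists, against 15.2% of all merged regions and 13.6% to 18.0% over the other ends. At these shared members the median fold was 4.40 and 4.48 at 12 h, 4.31 and 4.49 at 3 h, with 3.81 and 3.94 in control. The 979 shared regions of the other ends had medians of 4.62 and 4.58 at 12 h, 4.24 and 4.25 at 3 h, with 3.84 and 4.03 in control. The arm was thus above the other ends in both 3 h libraries and below them in the other 4. In all, 176 members (60.9%) were called in infested lists alone, against 63.2% of all merged regions. Over all groups, 86 members (29.8%) were called in 1 list, against 30% of all merged regions. Without control replicate 1, 55 members were called in all remaining lists. Fewer lists have to agree there, and the share of all merged regions is not given for that count.

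The low share came with poor overlap between the control lists on the arm. Of the 113 members that either control list called, 41 (36.3%) were in both, against 52.0% at the other ends, where single ends ranged from 46.8% to 56.9%. At 12 h the lists shared 137 of 217 members (63.1%), within the 56.9% to 65.3% of single other ends. At 3 h they shared 146 of 228, above the other ends, which had 58.7% when pooled and 54.3% to 62.9% singly. Control lists on the arm also held regions that no infested list called. Of the control replicate 1 members 10 of 69 (14.5%) were in no infested list, against 6.42% at the other ends (2.78% to 9.59% over single ends). For control replicate 2 it was 8 of 85 (9.41%), against 4.53% (2.51% to 5.65%).

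In all, 17 members (5.88%) were called in control lists alone, against 3.21% of all merged regions and at most 3.6% on another end. Of these 17, only the region at 27654062 was in both control lists, and the other 16 were in 1. Their folds ran from 2.57 to 4.33. For each region the highest −log10 q of its peaks was taken. The median over arm regions was 4.09 and 4.26 at 12 h, 4.24 and 4.33 at 3 h, with 3.54 and 3.42 in control. At the other ends it was 4.32 and 4.28 at 12 h, 4.25 and 4.22 at 3 h, with 4.01 and 4.10 in control. The arm had the lowest median of the 12 ends in both control libraries and in 12 h replicate 1, and the second lowest in 12 h replicate 2. At 3 h it ranked 6 and 8 from the lowest. With lists of equal length, 37 of 177 arm regions (20.9%) were called in control lists alone, against 16.8% of all 9838 regions. At −log10 q of at least 5 it was 2 of 141 (1.42%), against 2.82% of all 8269 regions, a share below that of all regions. Without control replicates 1 and 2 in turn, the count of members in control lists alone was 9 and 10. Shares of all merged regions are not given for these 2 counts.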

How the data were processed

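The tools named, per the submitters' processing notes, are MACS2 2.1.0, Bowtie 1.1.2, Trimmomatic 0.33 and bcl2fastq 2.17, on build IRGSP-1.0. Not given in the sources used here are their settings, any input control and the handling of duplicate or multiply aligned reads. The authors deposited 1 peak list per library, with the fold enrichment at the summit (a ratio), the −log10 p-value, the −log10 q-value and a whole-number score per peak; the deposited score was not used. The smallest deposited −log10 q was 1.30. Summit offsets in bp are also deposited, per the file layout.

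Sequence names in ascending order were taken as chromosomes 1 to 12. Peaks sharing start and end counted as 1 region. Arm and other ends were compared within each library by exact sign-flip permutation tests (6 tests), and groups by exact permutation of labels on log2 values (24 tests, two-sided as 2 times the smaller tail), each family adjusted by the Benjamini-Hochberg method; over 6 libraries the smallest p is 0.03125, with 4 against 2 it is 0.133 and with 2 against 2 it is 0.333. Summit coverage was recovered from fold and −log10 p with a tolerance of 0.001. Read totals were not used; median summit coverage of 12 to 18 fragments limits each fold, and intervals were not computed. Scripts (Python 3.11.15, pandas 2.3.3, numpy 2.4.6, SciPy 1.17.1) were tested on simulated data. Planned tests on gene starts were not run, because the gene table at hand is of another assembly.

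Named members followed a rule: the 8 strongest called in all lists, the 5 strongest gained at both times, up to 5 lost at each time, up to 4 called at 1 time alone, the 5 longest gaps, the 3 widest members, and the densest and sparsest windows. The members and rules were chosen with earlier results of these data known. The labels give the groups no batch.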

Additional observations from a re-analysis of the deposited data

Results flagged for a closer look

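In 2 of 12 measures checked for a library apart from the rest (6 libraries, or the 4 infested ones), 1 library stood apart by Dixon's criterion, which chance flags in about 1 group in 20. The log2 ratio of the median gap, arm to other ends, was 1.41 in control replicate 1, against 0.35 to 0.62 in the other 5 libraries. The difference in the share of regions with several summits, arm minus other ends, was −7.41 percentage points in control replicate 2, where 1 of 87 arm regions had several summits, against −4.19 to −2.45 in the others.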

How the results depend on the processing

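Of the values below, the sign-flip comparisons of arm and other ends kept their direction in density, covered length, gap, width and several-summit share under each alternative run. At −log10 q of at least 5 the fold ratio was 0.092 (now past the threshold, under a filter not independent of fold). The several-summit difference was −4.93 points (no longer past the threshold). Of 141 arm regions, 5 were then called in all lists (3.55%, against 8.13% of all 8269 regions). At 12 h 18 were gained (12.8% against 19.3%) and 3 lost (2.13% against 1.80%). At 3 h 25 were gained (17.7% against 18.2%) and 0 lost (0% against 0.943%). At both times 6 were gained (4.26% against 8.86%) and 0 lost (0% against 0.496%). At 12 h against 3 h, 2 were gained (1.42% against 5.08%). In 12 h lists alone there were 2 (1.42% against 4.37%). Infested lists alone had 110 (78.0% against 71.7%) and control lists alone 2 (1.42% against 2.82%). Log2 differences in median fold to control turned to −0.011 for all infested and −0.059 at 3 h, and those in the fold ratio to −0.051 for all infested, −0.067 at 12 h and −0.036 at 3 h. With lists of equal length, log2 differences to control turned to −0.013 (all infested) and −0.10 (12 h) in arm regions, −0.0011 and −0.10 in arm share, and −0.096 at 12 h in the density ratio; fewer peaks enter by construction. Of 177 arm regions, 15 were then called in all lists (8.47%, against 14.0% of all 9838 regions). At 12 h 8 were gained (4.52% against 7.3%) and 13 lost (7.34% against 6.9%). At 3 h 11 were gained (6.21% against 5.55%) and 7 lost (3.95% against 5.73%). At both times 2 were gained (1.13% against 2.25%) and 6 lost (3.39% against 3.3%). At 12 h against 3 h, 2 were gained (1.13% against 4.8%). In 12 h lists alone there were 2 (1.13% against 2.74%), and in 3 h lists alone 4 (2.26% against 1.504%). Infested lists alone had 72 (40.7% against 37.1%) and control lists alone 37 (20.9% against 16.8%). An overlap of 50% of the shorter region gave 306 arm regions of 18372 in all. Of these arm regions, 1 was lost at 3 h (0.327% against 0.512%) and 5 were in 3 h lists alone (1.63% against 2.23%). With the arm from 22 Mb the width ratio was −0.082 (no longer past the threshold) and the 12 h against 3 h gap difference −0.0045. The median of the 11 ends turned the 12 h density-ratio difference to −0.033. Against chromosome 12 alone, added after seeing the data, ratios were −0.41 in density, −0.54 in covered length, 0.18 in gap and −0.11 in width, the several-summit difference was −4.46 points, none past the threshold after adjustment, and the fold ratio turned to −0.055. The cause was not tested for changes without a stated construction.

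Without 1 library, 5 remain, and the smallest sign-flip p is 0.0625. Ranges were −1.001 to −0.96 for density, −1.14 to −1.10 for covered length, 0.47 to 0.69 for gap, −0.13 to −0.073 for width and −4.56 to −3.57 points for several summits. Counts ranged from 36 to 55 called in all lists, 61 to 95 gained and 1 to 16 lost at 12 h, 65 to 110 gained and 2 to 15 lost at 3 h, 1 to 10 lost at both times, 13 to 34 gained and 12 to 38 lost at 12 h against 3 h, 7 to 27 in 12 h lists alone, 8 to 31 in 3 h lists alone and 9 to 20 in control lists alone. The rules behind these counts change by construction when a list is left out, and shares of all merged regions are not given for them. Log2 differences that turned ranged from −0.025 to 0.12 (share, all infested), −0.054 to 0.092 (share, 12 h), −0.042 to 0.095 (density ratio, 12 h), −0.0056 to 0.083 (fold ratio, 12 h) and −0.0011 to 0.080 (gap, 12 h against 3 h). Deviations of same-numbered libraries correlated at −0.034 to 0.0057 over 2657 shared regions, so this check showed no pairing by replicate number. It covers only regions called in all lists, with folds that rest on few fragments, and cannot exclude a pairing. A replicate block left every difference between groups as it was, 1.24 for arm regions of all infested against control (exact permutation p = 0.222). Counting summits in place of regions kept the direction of all 13 values rerun. These were density and the group differences in arm regions, share and density ratio. Gained, lost and shared calls were not rerun that way. The tests and the 500 bp window on gene starts were not run. Of 26 named members, 5 were called in as many lists at −log10 q of at least 5, 8 with lists of equal length and 26 with overlap of 50% of the shorter region. Summit coverage of 12 to 18 fragments limits what single calls can show.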
